A study of Mus musculus with 96 samples.

Results

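The libraries described here compared the hippocampus with the thalamus of mice that had neither brain injury nor drug, and they served as the baseline for regional identity. They were the 4 libraries of the hippocampus and the 4 of the thalamus labelled as vehicle without traumatic brain injury (Sham + VH). All were labelled as taken at 3 days post-injury (dpi), and they made up 8 of the 96 libraries of the series. The series measured bulk mRNA by sequencing in the hippocampus, thalamus and hypothalamus after controlled cortical impact or sham surgery, with candesartan, a blocker of the angiotensin AT1 receptor, or vehicle, at 3 and 29 dpi. The mice were C57BL/6 males of 8 to 10 weeks. Sham surgery was anaesthesia and a scalp incision with the skull left closed. Vehicle, saline with sodium carbonate, was injected intraperitoneally at 6, 24 and 48 h, and the region was dissected at 3 dpi from the side on which injured mice were struck. A library is therefore a mixture of all cells in a dissected block, and the blood was flushed out with saline before dissection. In such bulk tissue, fewer cells of a type and less RNA per cell cannot be told apart. The sources do not say whether libraries with the same number came from the same mouse.

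The hippocampus belongs to the telencephalon and the thalamus to the diencephalon, and the cells of each keep transcription factors from their embryonic origin. The hippocampal circuit runs from the granule cells of the dentate gyrus to the pyramidal neurons of the CA fields, which release glutamate loaded by the vesicular transporter VGLUT1 and are known for synaptic plasticity. The thalamus is made mainly of relay neurons, which project to the cortex, load glutamate with VGLUT2 and fire in bursts through T-type calcium channels and hyperpolarization-activated (HCN) channels. The habenula, the choroid plexus of the ventricles and the hypothalamus adjoin the thalamus.

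The 8 libraries held 22889843 to 27452743 counts on genes, with medians of 24925125 in the hippocampus and 24556780 in the thalamus (exact permutation test over 70 divisions, 2-sided, p = 0.429). The table listed no gene of the mitochondrial genome, so the share of mitochondrial reads was not measured. Levels are given as CPM, the counts of a gene relative to the TMM-scaled size of its library. Region took 82.4% of the variance of log2 CPM on the first principal component. The second component, with 5.93%, set hippocampal replicate 3 and thalamic replicates 2 and 4 apart from the rest, and its leading gene was Ttr, which encodes transthyretin of the choroid plexus. Libraries therefore differed in the level of choroid plexus transcripts within each region. The counts over all genes and the calls on named genes were also computed with only the 3 hippocampal and 2 thalamic libraries rich in those transcripts, a setting chosen after seeing the data.

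Of 16474 genes tested with edgeR, 6758 (41.0%) differed between the regions at an FDR under 0.05 with an absolute log2 fold change (log2 FC) above 0.32. There were 3282 genes higher in the hippocampus (19.9%) and 3476 higher in the thalamus (21.1%). Over 4-fold differences were called for 952 genes (5.78%), of which 444 were higher in the hippocampus (2.70%) and 508 in the thalamus (3.08%). The values of the 4 hippocampal libraries did not overlap those of the 4 thalamic libraries for 7976 genes (48.4%), and 6132 of these were called. The median log2 FC over all genes was 0.004. Counts in the lists and families below are to be read beside these shares. With the choroid-rich libraries alone, 6781 genes were called and 1049 over 4-fold.

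**Figure D1:**
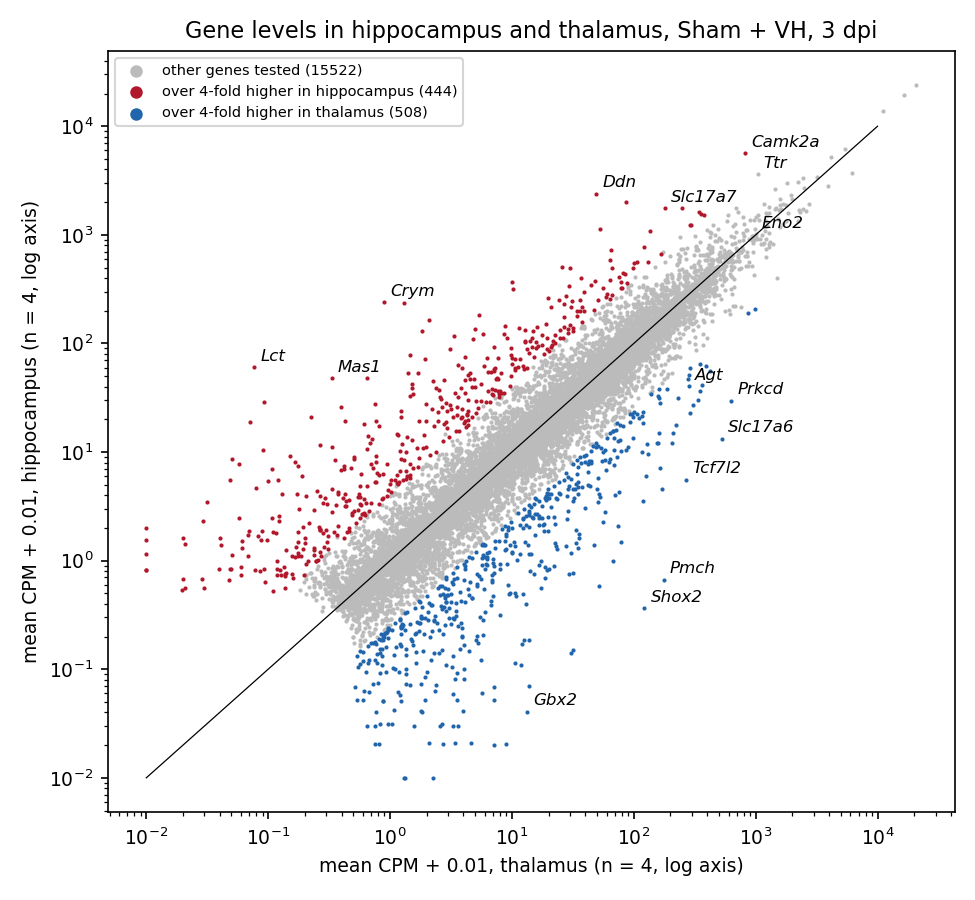
Mean level of each gene tested in the 4 thalamic (x axis) and 4 hippocampal (y axis) Sham + VH libraries at 3 dpi, in CPM + 0.01 on log axes. The line marks equal levels, and the 444 and 508 genes called over 4-fold lie above and below it, with Camk2a and Slc17a7 among the abundant hippocampal genes and Prkcd and Slc17a6 among the abundant thalamic genes.

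The gene with the largest difference towards the hippocampus was Lct, which encodes lactase and is a marker of dentate granule cells. It had 44.4, 75.4, 71.8 and 49.2 CPM in the hippocampal libraries and 0, 0.148, 0.0428 and 0.0765 CPM in the thalamic libraries (log2 FC 9.67 ± 0.36 SE, FDR = 4.92e-09). Every hippocampal value lay far above every thalamic value, and the ranking took only genes without overlap. It was followed by Slc9a4 (8.43), a sodium-proton exchanger, Spink8 (8.20), a serine protease inhibitor gene, and Crym (8.09), which encodes the thyroid hormone binding protein mu-crystallin. Syna, Neurod6, Mas1, Dio3, Krt2, Zcchc5 and Itpka were also among the 12 largest, with log2 FC between 6.31 (Itpka) and 7.61 (Syna). Crym was also abundant, with 280, 230, 214 and 234 CPM in the hippocampus against 1.72, 0.628, 0.77 and 0.421 CPM in the thalamus.

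Towards the thalamus, the 12 largest differences included those of the transcript AK036422 and of the homeobox genes Gbx2 and Shox2. Gbx2, which is needed for the formation of thalamic relay neurons, had 12.2, 14.5, 10.7 and 15.7 CPM in the thalamus and 3 counts in all 4 hippocampal libraries together, a ratio of 437 (95% exact counting interval 149 to 2122). Shox2 had 128, 142, 122 and 96.2 CPM in the thalamus against 0.246, 0.858, 0.0851 and 0.225 CPM in the hippocampus (log2 FC -8.43 ± 0.29 SE, FDR = 3e-09). Both separated the regions without overlap, which the rule for the 12 largest required. AK036422 had 1 count in the hippocampal libraries, with a ratio of 877 (157 to 34661). Intervals on counts cover counting error only. Others among the 12 largest were Pmch, Abhd12b, Hcrt, Gm5741, Chat, Pou4f1, C130021I20Rik and Foxb1, and Pmch, Hcrt, Chat and Pou4f1 belong to neighbouring structures taken up further on. C130021I20Rik was uneven among thalamic libraries, at 5.87, 0.96, 5.09 and 16.7 CPM.

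Transcription factors listed by embryonic origin were mostly higher in the matching region. Of 30 telencephalic factors tested, 23 were higher in the hippocampus and 3 in the thalamus, with a median log2 FC of 2.26 beside 0.004 for all genes, and 16 were over 4-fold higher. Neurod6, a factor of excitatory telencephalic neurons located at chr6:55677822-55681263 (mm10), had 226, 233, 265 and 212 CPM in the hippocampus and 0.319, 0.701, 1.45 and 2.64 CPM in the thalamus (log2 FC 7.51 ± 0.32 SE, FDR = 1.17e-08). Its relative Neurod2 differed by 6.16. Fezf2, a factor of projection neurons, had a log2 FC of 6.20 and Emx1, a homeobox gene of the dorsal telencephalon, of 6.00. Zbtb18, the most abundant of the list together with Neurod6, had means of 500 ± 60.4 and 66.6 ± 5.53 CPM (SD, n = 4). Prox1, the factor that fixes granule cell identity, was an exception, with 37.1, 50.4, 49.7 and 34 CPM in the hippocampus and 39.6, 57.4, 40.1 and 41.1 CPM in the thalamus (log2 FC -0.06 ± 0.15 SE, FDR = 0.771). Its ranges overlapped, and the highest of the 8 values came from the thalamus. The 3 members higher in the thalamus, named after their values were seen, were Cux2 (-1.38), Nkx2-1 (-2.47) and Pax6 (-0.49).

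Of 34 diencephalic and midbrain factors tested, 28 were higher in the thalamus (median log2 FC -3.50). The only one higher in the hippocampus was Meis2 (0.99), named after its value was seen. The count over 4-fold was 24. Tcf7l2, a Wnt effector of the thalamus, had 248, 325, 244 and 250 CPM in the thalamus and 3.56, 8.02, 5.36 and 5.28 CPM in the hippocampus (log2 FC -5.59 ± 0.20 SE, FDR = 4.03e-09). The nuclear receptor gene Rora (-3.48) and Zic1 (-4.11) were the most abundant together with Tcf7l2. Of the Iroquois, Otx and Zic family, 11 of 13 were higher in the thalamus, all 11 over 4-fold, and Irx2 differed by -6.13. Irx2 and Irx1 were highest in thalamic replicate 2, at 22.4 and 15.1 CPM against 6.83 to 11.9 and 6.43 to 9.68 CPM in the other thalamic libraries. Lhx9 had the smallest difference of the relay factors named here, 19.1 ± 2.03 against 57.6 ± 15 CPM (log2 FC -1.59).

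**Figure D2:**
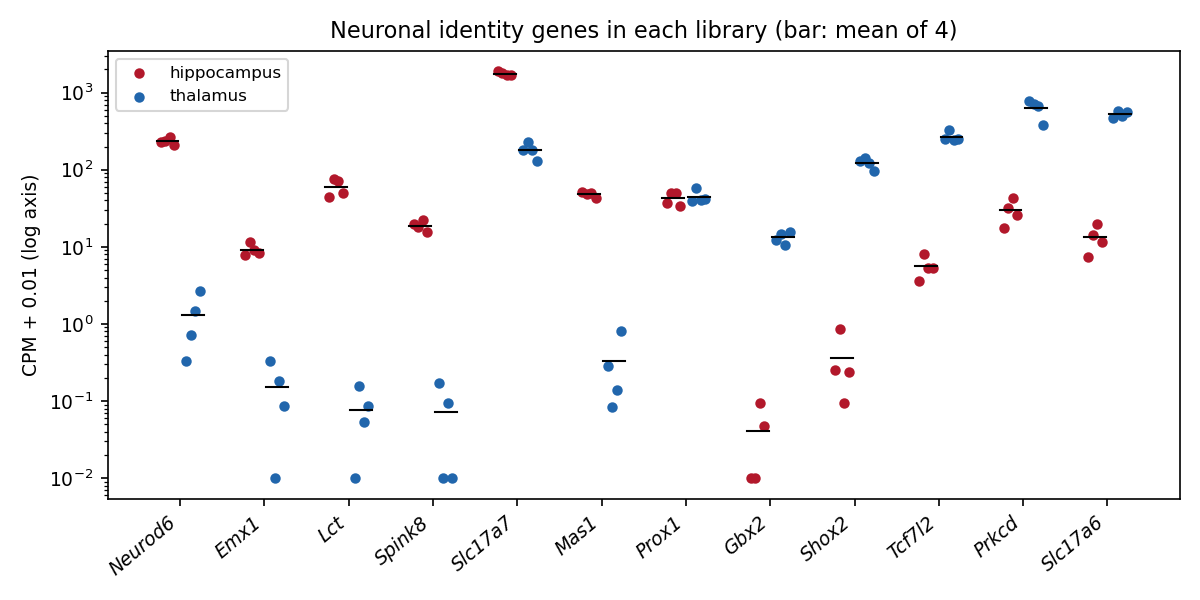
Level of 12 neuronal identity genes in each of the 4 hippocampal (red) and 4 thalamic (blue) Sham + VH libraries at 3 dpi, in CPM + 0.01 on a log axis; bars are means of 4. Prox1 overlaps at about 34 to 57.4 CPM, while the other 11 genes separate the regions.

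Sequences upstream of 4 of these factors are given because the genes moved with their region and carry, in the 250 bases before the RefSeq start site (GRCm38.p6), a short element bound by NeuroD-type or by Tcf/Lef-type factors. The elements were CAGATG and CTTTGA, searched on both strands, and capitals mark the match. Neurod2 and Fezf2 were higher in the hippocampus, Irx2 and Shox2 in the thalamus.
Neurod2, chr11:98329646-98329895, minus strand: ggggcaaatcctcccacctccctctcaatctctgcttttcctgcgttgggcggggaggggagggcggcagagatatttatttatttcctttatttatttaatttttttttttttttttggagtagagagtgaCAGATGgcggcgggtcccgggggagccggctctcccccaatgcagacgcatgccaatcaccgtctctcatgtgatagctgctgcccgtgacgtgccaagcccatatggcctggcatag
Fezf2, chr14:12345866-12346115, minus strand: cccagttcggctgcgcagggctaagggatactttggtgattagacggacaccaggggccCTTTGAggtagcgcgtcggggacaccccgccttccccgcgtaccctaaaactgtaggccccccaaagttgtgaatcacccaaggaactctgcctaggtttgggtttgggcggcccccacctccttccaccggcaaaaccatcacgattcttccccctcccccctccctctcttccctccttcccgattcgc
Irx2, chr13:72628570-72628819, plus strand: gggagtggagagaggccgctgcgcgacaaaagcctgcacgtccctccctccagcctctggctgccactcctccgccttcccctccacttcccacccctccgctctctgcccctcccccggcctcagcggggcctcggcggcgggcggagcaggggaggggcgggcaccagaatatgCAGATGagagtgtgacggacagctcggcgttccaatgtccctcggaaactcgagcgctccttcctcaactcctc
Shox2, chr3:66981772-66982021, minus strand: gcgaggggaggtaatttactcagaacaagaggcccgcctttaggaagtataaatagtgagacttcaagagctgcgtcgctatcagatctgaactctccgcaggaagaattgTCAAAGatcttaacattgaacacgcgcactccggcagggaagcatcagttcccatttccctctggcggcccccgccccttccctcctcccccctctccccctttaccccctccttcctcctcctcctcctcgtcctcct
A start site was matched for 11491 of the 16474 genes, and the first one listed was used. CAGATG was present before 10.3% of these genes, 14.2% of the 302 matched genes over 4-fold higher in the hippocampus and 16.7% of the 347 higher in the thalamus. CTTTGA was present before 10.8%, 14.2% and 13%. A match describes the letters in this window and is not a site of binding, and the elements were chosen with the results known.

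Markers of hippocampal neurons were higher in the hippocampus in most cases. Of 20 dentate granule cell markers, 16 were higher in the hippocampus and 2 in the thalamus (median log2 FC 1.70), and of 17 CA1 pyramidal neuron markers 15 and 1 (2.36). Besides Lct, the granule cell genes Tdo2 (5.50), which degrades tryptophan, and Dsp (5.26), the gene of the desmosomal protein desmoplakin, had large differences. Dsp had 45.2, 56.6, 67.9 and 43.4 CPM in the hippocampus against 1.24, 1.44, 1.75 and 1.15 CPM in the thalamus. Calb1, which encodes the calcium buffer calbindin and is strong in granule cells, was lower in the hippocampus, at 120 ± 13 against 193 ± 19.4 CPM (log2 FC -0.68, FDR = 9.05e-05). Among CA1 genes, Nov, a matricellular protein gene, had 157, 115, 126 and 150 CPM against 5.95, 5.09, 4.28 and 4.48 CPM (log2 FC 4.79 ± 0.14 SE). Mpped1 (3.28) and Fibcd1 (3.36) were the most abundant of them. The list also holds Gm5741, which went the other way by -7.69 and had 4.79, 27.6, 6.03 and 16.2 CPM in the thalamus and at most 0.112 CPM in the hippocampus. The CA2 and CA3 markers did not divide the regions: of 20, 10 were higher in the hippocampus and 8 in the thalamus. Rgs14, a signalling regulator of CA2 neurons, was higher in the hippocampus by 3.80, and Pcp4 was lower by -2.29.

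Of 31 thalamic relay neuron markers, 30 were higher in the thalamus, 25 of them over 4-fold (median log2 FC -3.67). The regions did not overlap for any of the 31, while 48.4% of all genes tested were without overlap. Prkcd, the gene of protein kinase C delta at chr14:30595354-30626210, had 779, 703, 672 and 379 CPM in the thalamus and 17.3, 32.3, 43.4 and 25.6 CPM in the hippocampus (log2 FC -4.42 ± 0.30 SE, FDR = 4.41e-07). Thalamic replicate 4 was the lowest for it. The list as a whole summed to 5821 CPM in that library and to 6481 to 7814 CPM in the others, against 917 to 1035 CPM in the hippocampus. Slitrk6, a neurite growth gene, differed by -6.09, and Adarb1, an RNA-editing enzyme, was the most abundant at 870 ± 139 CPM against 192 ± 9.54 CPM. Ror1, a receptor tyrosine kinase gene named after its value was seen, was the only relay marker of the list that was higher in the hippocampus (1.32). Of the protein kinase C genes, Prkch also followed the thalamus (-4.63), while Prkca (2.96) and Prkcb (1.62) followed the hippocampus.

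The main vesicular glutamate transporters were opposed. Slc17a7, which encodes VGLUT1 (chr7:45163949-45176142), had 1901, 1802, 1690 and 1676 CPM in the hippocampus and 178, 226, 182 and 128 CPM in the thalamus (log2 FC 3.31 ± 0.15 SE, FDR = 2.18e-08). Slc17a6, which encodes VGLUT2 (chr7:51622006-51671119), had 7.33, 14.4, 20 and 11.4 CPM in the hippocampus and 475, 581, 500 and 566 CPM in the thalamus (log2 FC -5.32 ± 0.25 SE, FDR = 2.4e-08). Neither gene overlapped between the regions. Divided by exon length, hippocampal mean levels were 328 CPM per kb for Slc17a7 and 2.46 for Slc17a6, and thalamic levels were 33.1 and 98.3 CPM per kb. Slc17a8, the gene of VGLUT3, was low in both and its ranges overlapped (4.76 ± 0.76 and 9.53 ± 3.9 CPM, log2 FC -1.01, FDR = 0.00836).

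Ion channels and receptors were distributed by subunit. Of the HCN channel genes, Hcn4 (-4.74), Hcn3 (-1.11) and Hcn2 (-0.69) were higher in the thalamus. Of the 3 T-type calcium channel genes, 1 was higher in the thalamus and 2 in the hippocampus, with Cacna1g at 107, 95.7, 87.9 and 95.9 CPM in the hippocampus and 362, 443, 315 and 358 CPM in the thalamus (-1.94), and Cacna1h at 177, 211, 168 and 160 CPM in the hippocampus and 36, 26.8, 30.9 and 44.4 CPM in the thalamus (2.37). Cacna1i had a smaller difference, 90.6 ± 6.27 against 65.9 ± 4.19 CPM, without overlap (0.46, FDR = 0.000154). Of 43 voltage-gated potassium channel subunits, 17 were higher in the hippocampus and 16 in the thalamus, with Kcnh3 (5.14) at the hippocampal end. Of 15 GABA-A receptor subunits, 3 were higher in the hippocampus and 10 in the thalamus (median -0.93). Gabra5, which encodes a subunit of extrasynaptic receptors of hippocampal pyramidal neurons, had a log2 FC of 2.53. Gabrd, a subunit of tonic inhibition in relay neurons, was opposite at -1.87, with thalamic replicate 4 lowest at 47.2 CPM against 90.2 to 104 CPM. All 4 glycine receptor subunits tested were higher in the thalamus, from Glrb (-0.51) to Glra1 (-6.63). Adrenergic receptors were opposed within the family, with Adra1d (3.95) and Adra2c (2.17) higher in the hippocampus and Adra2b (-6.27) and Adra1b (-3.88) higher in the thalamus. The muscarinic receptor gene Chrm1 was among the clearest hippocampal genes, at 318, 338, 309 and 304 CPM against 11.4, 10.6, 9.5 and 9.41 CPM (log2 FC 4.96 ± 0.08 SE, FDR = 3.29e-11). Htr1a (2.47) and Htr7 (-2.16), both serotonin receptor genes, were opposed, as were Cnr1, the cannabinoid CB1 receptor gene (1.86), and the opioid receptor genes Oprm1 (-3.47) and Oprk1 (-2.97). The metabotropic glutamate receptor gene Grm4 was higher in the thalamus by -3.42.

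Further families went both ways. Of 18 ionotropic glutamate receptor subunits, 8 were higher in the hippocampus and 6 in the thalamus, of 10 sodium channel subunits 3 and 6, of 31 neuropeptide precursors 10 and 16, and of 16 synaptotagmins 6 and 8.

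Genes of axon guidance and adhesion were also divided. Of 22 Eph receptors and ephrins, 11 were higher in the hippocampus and 4 in the thalamus (median 0.44), with Epha8 (-2.86) and Efnb2 (1.63) as examples. Of 21 cadherins, 2 were higher in the hippocampus, among them Cdh9 (3.37), and 10 in the thalamus, among them Cdh7 (-2.73). Of 36 Wnt ligands, receptors and antagonists with their effectors, 10 were higher in the hippocampus and 19 in the thalamus (-0.59), and Dkk3, a secreted member of the antagonist family, was the most abundant hippocampal one at 398 CPM against 36.9 CPM (3.43). Ntng1, the netrin-G gene of thalamocortical axons, had 39.2, 32.2, 33.9 and 39.8 CPM in the hippocampus and 356, 397, 324 and 320 CPM in the thalamus (-3.27).

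Genes of the postsynaptic density and of plasticity were higher in the hippocampus. Of 30 tested, 26 were higher there, 14 of them over 4-fold (median log2 FC 1.77). The 1 gene higher in the thalamus, named after its value was seen, was Shank3 (-0.34), and its call was lost without hippocampal replicate 3 or 4 or thalamic replicate 1 or 2 (-0.24 to -0.32). Camk2a, which encodes the alpha subunit of calcium/calmodulin-dependent kinase II, had 5360, 5992, 5787 and 5313 CPM in the hippocampus and 889, 918, 743 and 710 CPM in the thalamus (log2 FC 2.78 ± 0.10 SE, FDR = 5.33e-09). Ddn, the gene of the dendritic protein dendrin, had close values among libraries of a region, at 2306, 2621, 2358 and 2303 CPM against 48.3, 54, 45.9 and 49 CPM (5.60 ± 0.09 SE, FDR = 3.29e-11). Itpka (6.31), an inositol trisphosphate kinase of spines, Icam5 (5.21), Hpca (4.56), the gene of hippocalcin, and Nrgn (4.43), the gene of neurogranin, followed. The list summed to between 25026 and 28538 CPM in the hippocampus and between 6997 and 8268 CPM in the thalamus. General neuronal genes showed no such shift. Of 18 pan-neuronal genes, 8 were not called, 5 were higher in the hippocampus and 5 lower (median 0.07). Snap25 had 2132 ± 125 and 1971 ± 199 CPM, and Syp 1684 ± 63 and 1543 ± 86.6 CPM. The growth cone gene Gap43 was higher in the thalamus (-1.45).

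Immediate early genes, which neurons induce with activity, were mostly higher in the hippocampus. Of 20 tested, 16 were higher there and 3 in the thalamus (median 1.40). Egr3 had 90.3, 94.2, 90.9 and 76.6 CPM in the hippocampus and 4.07, 2.62, 2.99 and 2.64 CPM in the thalamus (log2 FC 4.84 ± 0.13 SE). Egr4 (4.17), Egr2 (4.49) and Nr4a3 (3.33) moved likewise, and Arc, whose protein acts at synapses, had 86.4 to 146 CPM against 17.1 to 28.2 CPM (2.40). The 3 genes higher in the thalamus, named after their values were seen, were Fos (-1.20), Dusp1 (-0.69) and Ier2 (-0.59), of which Ier2 lost its call without hippocampal replicate 1, 2 or 3 or thalamic replicate 1, 2 or 3 (-0.45 to -0.59).

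Of 14 genes tested from the renin-angiotensin system, the target pathway of candesartan, 2 were higher in the hippocampus and 4 in the thalamus (median -0.12). The share called was near the 41.0% of all genes tested. Mas1, which encodes the receptor of angiotensin-(1-7), had 52.1, 47.9, 49.4 and 43.5 CPM in the hippocampus and 0.279, 0.0738, 0.128 and 0.804 CPM in the thalamus (log2 FC 7.19 ± 0.31 SE, FDR = 1.36e-08). Agt, the gene of the precursor angiotensinogen, was reversed, at 36.1, 41.5, 41.2 and 43.4 CPM against 284, 264, 305 and 278 CPM (-2.80 ± 0.07 SE, FDR = 7.42e-10). Neither of them overlapped between the regions. Rnpep, an aminopeptidase gene, was higher in the hippocampus by 0.42. In the thalamus, Mme, the gene of neprilysin (-1.13), Agtr2, the gene of the AT2 receptor (FDR = 0.0162, with overlapping ranges), and Atp6ap2, the gene of the prorenin receptor (-0.66), were higher. Agtr1a, which encodes the AT1 receptor blocked by candesartan, had 10 to 25 counts per library, at 0.412 to 0.766 CPM in the hippocampus and 0.369 to 0.957 CPM in the thalamus (log2 FC 0.03 ± 0.36 SE, FDR = 0.947). Ace, the gene of angiotensin-converting enzyme, had 128, 104, 15.3 and 103 CPM in the hippocampus and 39.7, 26.1, 66 and 42.1 CPM in the thalamus and was not called (1.01 ± 0.49 SE, FDR = 0.108). Its low hippocampal value came from replicate 3, the library with little choroid plexus RNA. With the mean log2 CPM of the choroid plexus genes as a covariate, Ace had a log2 FC of -0.17. Without hippocampal replicate 3 it was called, at 1.37. Agtrap (-0.13), Lnpep (-0.43), Enpep (-0.25), Anpep (0.20) and Ctsd (0.22) were not called. Agtrap was called with the choroid plexus covariate (-0.33, FDR = 0.0223). Lnpep was called without hippocampal replicate 3 or thalamic replicate 1, at -0.60 and -0.61. Of 21 steroid, thyroid and retinoid receptor genes and their partners, 8 were higher in the hippocampus and 6 in the thalamus (median 0.06). The mineralocorticoid receptor gene Nr3c2 had 148, 157, 158 and 138 CPM against 17, 20.4, 18.9 and 19.1 CPM (2.99 ± 0.07 SE, FDR = 5.1e-10), and the thyroid hormone receptor gene Thra, with 1062 ± 49.9 CPM in the hippocampus, differed by 1.33.

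Inhibitory neuron genes were mixed. Of 29 telencephalic interneuron markers, 14 were higher in the hippocampus and 7 in the thalamus (0.53), and of 19 markers of reticular and other thalamic GABA neurons 6 and 6 (0.00). Vip (3.70), Kit (3.64) and the somatostatin gene Sst (1.66) were higher in the hippocampus. Among the interneuron markers, Chodl (-3.59) and the calretinin gene Calb2 (-2.93) were higher in the thalamus, as were Isl1 (-4.22), Ecel1 (-3.45) and Six3 (-3.08) among the thalamic GABA neuron markers. The genes of the 2 GABA-synthesizing enzymes went opposite ways. Gad1 had 309, 310, 328 and 307 CPM in the hippocampus and 282, 134, 242 and 107 CPM in the thalamus (log2 FC 0.71, FDR = 0.035). Gad2 had 115, 125, 149 and 131 CPM in the hippocampus and 269, 142, 249 and 181 CPM in the thalamus (-0.69, FDR = 0.00654). Thalamic replicates 1 and 3 were higher than 2 and 4 for both genes, and the call on Gad1 was lost when any hippocampal library or thalamic replicate 2 was left out (log2 FC 0.58 to 0.73).

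Glial lists went in different directions. Of 20 astrocyte genes, 3 were higher in the hippocampus and 9 in the thalamus (median -0.27). These counts were 5 and 8 without thalamic replicate 3, and 4 and 6 without thalamic replicate 1. The filament gene Gfap had 244, 345, 420 and 360 CPM in the hippocampus and 95.8, 112, 96.2 and 79.1 CPM in the thalamus (1.84 ± 0.15 SE), and Slc1a2, the gene of the glutamate transporter GLT-1, differed by 0.89. Astrocyte genes known to be regional were divided, 9 to 12 of 24, with Sparc (-1.90) among those of the thalamus. The potassium channel gene Kcnj10, which astrocytes use to clear potassium, was higher in the thalamus at 681 ± 36.7 against 222 ± 20.6 CPM (-1.62). Of 20 microglia genes, 16 were higher in the hippocampus and none in the thalamus, with a median of 0.44. The differences were small and even, as in Csf1r, the receptor gene for microglial survival signals, at 106, 103, 110 and 111 CPM against 87, 85.2, 73.6 and 73.3 CPM (0.43 ± 0.07 SE, FDR = 0.000313). Fcrls (0.84) and Aif1 (0.76) differed most. Of 28 oligodendrocyte and myelin genes, 15 were higher in the thalamus and none in the hippocampus (-0.64). Only 5 of the 28 had values that did not overlap, against 48.4% of all genes tested. Mbp, the gene of myelin basic protein, had 1631, 2834, 4006 and 2887 CPM in the hippocampus and 4984, 3616, 4426 and 2591 CPM in the thalamus and was not called (log2 FC -0.46 ± 0.26 SE, FDR = 0.156). Without hippocampal replicate 3 it was called, at -0.67. Klk6 (-3.02) and Nkx6-2 (-1.78) were called without overlap. The count of 15 rose to 22 without hippocampal replicate 3 and 21 without thalamic replicate 4, and it fell to 8 without hippocampal replicate 1, 6 without hippocampal replicate 2, 7 without thalamic replicate 1 and 8 without thalamic replicate 3. It was 6 with the choroid plexus level as a covariate. Of 14 oligodendrocyte precursor genes, 1 was higher in the hippocampus and 5 in the thalamus (-0.29), the latter 3 without thalamic replicate 1. Their share called was near the 41.0% of all genes tested. Of 20 genes of neurofilaments and nodes, 5 were higher in the hippocampus and 12 in the thalamus (-0.46). Of 22 endothelial and mural cell genes, 3 and 3 were called (0.04), with 9 higher in the hippocampus without hippocampal replicate 3 and 5 without thalamic replicate 2, and 1 with the choroid plexus level as a covariate.

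**Figure D3:**
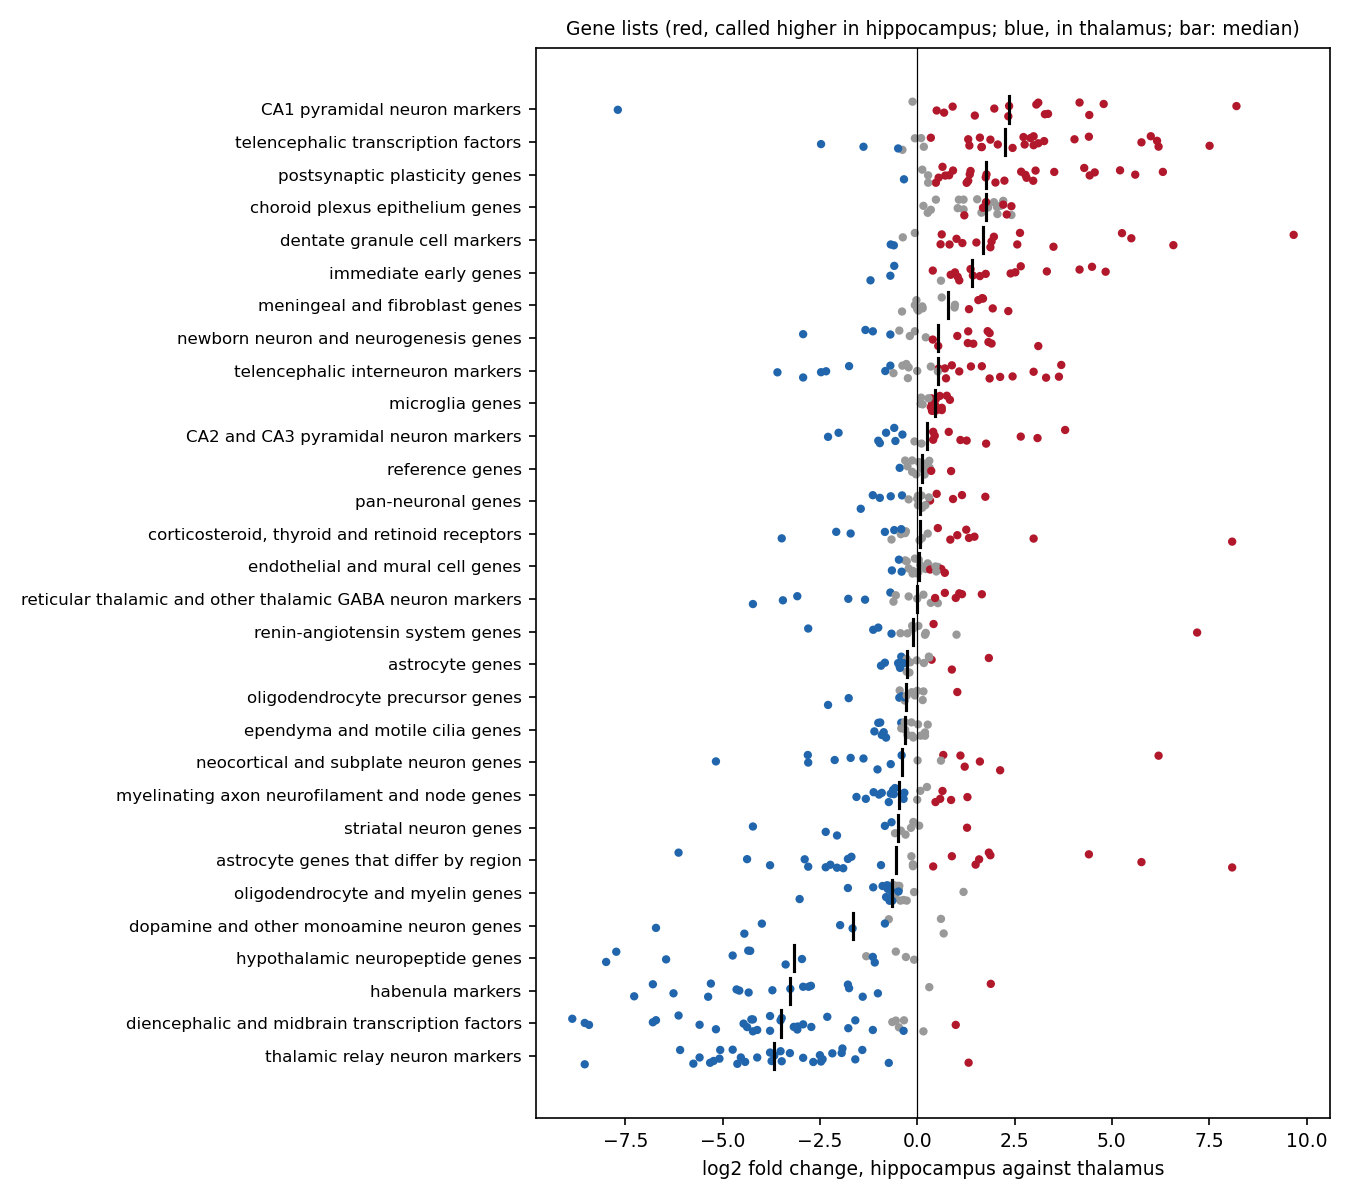
Log2 fold change, hippocampus against thalamus, of each tested member of 30 gene lists in the Sham + VH libraries at 3 dpi; red and blue points are genes called higher in the hippocampus or thalamus, grey points were not called, and bars are medians. The medians run from -3.67 for thalamic relay neuron markers to 2.36 for CA1 pyramidal neuron markers, and the general neuronal list is at 0.07.

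Transcripts of neighbouring structures were present and uneven. The 25 choroid plexus genes summed to 9333, 6732, 533 and 7417 CPM in the hippocampus and to 1905, 368, 5448 and 295 CPM in the thalamus. Ttr had 6285, 3979, 159 and 4188 CPM against 1003, 38.8, 3094 and 7.62 CPM, and was not called (log2 FC 1.82 ± 1.39 SE, FDR = 0.299). The groups overlapped for every one of the 25 genes. Of the 25, 6 were called higher in the hippocampus (median 1.76), beside 19.9% of all genes tested, among them Kl (2.42) and Trpv4 (2.21). The count was 18 without hippocampal replicate 3 and 20 without thalamic replicate 3, and 1 without hippocampal replicate 1 or 4 or thalamic replicate 2 or 4. It was 3 without hippocampal replicate 2. Of 16 meningeal and fibroblast genes, 6 were higher in the hippocampus and none in the thalamus (0.80). Igf2, a growth factor gene of meninges and choroid plexus, had 243, 193, 39.7 and 266 CPM in the hippocampus and 58.9, 32.9, 69.2 and 32.3 CPM in the thalamus. Ependymal genes were higher in the thalamus in 7 of 19 cases (-0.31), 1 of which had no overlap. That count was 4 without hippocampal replicate 1, 3 without hippocampal replicate 2 or thalamic replicate 2, and 2 with the choroid plexus level as a covariate.

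Of 19 habenula markers, 17 were higher in the thalamus and 1 in the hippocampus (-3.26). They summed to 788, 1455, 863 and 1238 CPM in the thalamus and to 260 to 291 CPM in the hippocampus. Gpr151, a receptor gene of habenular neurons, had 11.8, 64.5, 19.7 and 30.5 CPM in the thalamus, and Pou4f1 3.55, 26.1, 5.65 and 11.8 CPM. Both were highest in replicate 2, the library that was also highest for Irx2 and Gm5741. Hypothalamic neuropeptide genes were higher in the thalamus in 10 of 14 cases and in the hippocampus in none (-3.17). Their sums were 722, 206, 726 and 601 CPM in the thalamus and 151 to 195 CPM in the hippocampus. Pmch, the gene of melanin-concentrating hormone, had 362, 6.87, 235 and 102 CPM in the thalamus and 0.0425 to 1.72 CPM in the hippocampus (log2 FC -7.99 ± 1.22 SE, FDR = 0.000235). Hcrt, the gene of the orexins, had 53.2, 5.32, 56.8 and 10.7 CPM and Oxt, the oxytocin gene, 14.9, 5.65, 90.4 and 96.7 CPM in the thalamus. Thalamic replicate 2 was lowest for all 3 peptides, and it was the highest for habenula markers. Of 9 dopamine and monoamine neuron genes tested, 6 were higher in the thalamus (-1.66). Slc6a3, the dopamine transporter gene, had 22.1 CPM in thalamic replicate 1 and 0.628 to 2.98 CPM in the others, and its ranges overlapped those of the hippocampus. These are genes of the thalamic blocks as dissected, and the share of each structure in them was not tested.

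**Figure D4:**
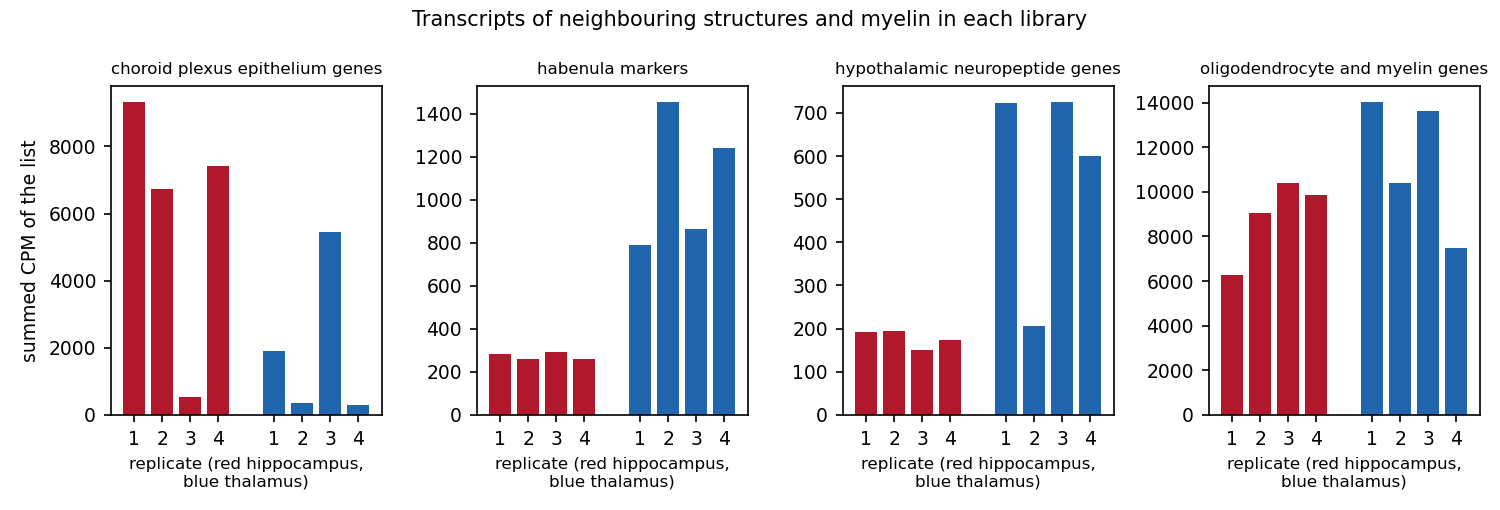
Summed level, in CPM, of choroid plexus, habenula, hypothalamic neuropeptide and oligodendrocyte gene lists in hippocampal (red) and thalamic (blue) Sham + VH replicates 1 to 4 at 3 dpi, with axes starting at 0. Choroid plexus genes range from 533 to 9333 CPM in the hippocampus and from 295 to 5448 CPM in the thalamus, and thalamic replicate 2 has the most habenula (1455 CPM) and the least neuropeptide transcripts (206 CPM).

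Genes of other forebrain areas and of neurogenesis were divided without a common direction. Of 12 striatal genes, 1 was higher in the hippocampus and 5 in the thalamus (-0.49), of 17 neocortical genes 6 and 9 (-0.40), and of 19 genes of newborn neurons 11 and 4 (0.54). Eomes, a gene of neuronal precursors, was called (3.11 ± 1.01 SE, FDR = 0.0238) through 8.46 CPM in hippocampal replicate 3 against 0.573 to 1.07 CPM in the other hippocampal libraries. The call was lost without that library (1.49), and without thalamic replicate 2 (2.68), 3 (3.08) or 4 (2.88). Of 16 reference genes, 13 were not called. Actb, the beta-actin gene, was higher in the hippocampus in all libraries (1165 to 1329 against 624 to 755 CPM, log2 FC 0.87 ± 0.08 SE), while Ywhaz was not called (572 ± 39.3 and 514 ± 43.2 CPM, 0.15). Gapdh and Rpl13 had only 13.6 ± 4.83 and 6.84 ± 0.97 CPM in the hippocampus, low for such genes. Both have many processed pseudogenes, and the counting rule for reads that fit several places is not given in the sources used here, so their levels are uncertain. Among abundant genes with almost equal levels were Eno2 (1009 ± 33 and 998 ± 45.8 CPM), Ywhag (1205 ± 47.2 and 1232 ± 14.5 CPM) and Rtn3 (1199 ± 50.2 and 1228 ± 53.7 CPM).

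The same regional comparison was made in libraries of other mice. At 29 dpi, in mice given vehicle from an osmotic pump under the skin after a first dose, 6319 of 16566 genes (38.1%) were called in Sham + VH. In sham mice given candesartan (Sham + CD) at 3 dpi it was 7467 of 16313 (45.8%). Of the 444 genes over 4-fold higher in the hippocampus, 429 were tested at 29 dpi and 406 of these were called in the same direction. Of the 508 higher in the thalamus, 485 of 491 were. The figures for Sham + CD were 416 of 421 and 489 of 491, with 1 gene called in the opposite direction. Over all called genes the shares were lower. Of those higher in the hippocampus, 2508 of 3251 tested (77.1%) were called in the same direction at 29 dpi and 2760 of 3236 (85.3%) in Sham + CD, where 4 were called in the opposite direction. Of those higher in the thalamus it was 2812 of 3440 (81.7%) and 2952 of 3429 (86.1%). The median log2 FC of the over 4-fold hippocampal genes was 2.90 at 3 dpi and 2.63 at 29 dpi, and that of the thalamic genes -2.92 and -2.80. The genes were selected on their 3 dpi values, so these medians are not compared on equal terms. The 29 dpi libraries were also uneven in depth, from 8159341 to 38589791 counts. The test of the difference itself, the interaction of region with time, called none of 17007 genes (0%) with edgeR and 0 with DESeq2, and 724 and 767 genes had an unadjusted p under 0.05.

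Single libraries weighed on the 29 dpi values. Lct had 35.5 to 51.6 CPM in the hippocampus at 29 dpi and 0.146, 0.262, 20.2 and 0.386 CPM in the thalamus, so thalamic replicate 3 carried a dentate gyrus transcript. Its log2 FC was 3.15 (FDR = 0.0327) and, without that library, 7.36 (FDR = 6.66e-08). Neurod6 had 16.5 CPM there against 0.644 to 0.742 CPM in the other thalamic libraries. In Sham + CD, where all 4 hippocampal libraries were poor in Ttr (36 to 81.8 CPM), Ace was higher in the thalamus (-1.31, FDR = 2.83e-06) and the choroid plexus list had 1 member of 21 tested higher in the hippocampus and 9 in the thalamus, against 6 and 0 of 25 in Sham + VH. Neurod6 (8.30), Mas1 (7.93), Slc17a6 (-5.07) and Shox2 (-7.36) had log2 FC in Sham + CD of the same sign as in Sham + VH. Of the 3 vesicular glutamate transporter genes, 1 was higher in the hippocampus and 1 in the thalamus in Sham + CD (median 0.56). In Sham + VH these were 1 and 2 (median -1.01). Myelin genes were higher in the thalamus in 26 of 28 cases at 29 dpi and in all 28 in Sham + CD, against 15 of 28 in Sham + VH at 3 dpi. Ependymal genes were higher in the thalamus in 18 of 19 cases in Sham + CD and 8 of 19 at 29 dpi, against 7 of 19. Microglia genes were higher in the hippocampus in 8 of 20 cases in Sham + CD and 14 of 20 at 29 dpi, against 16 of 20. The differences between Sham + CD and Sham + VH were not tested.

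**Figure D5:**
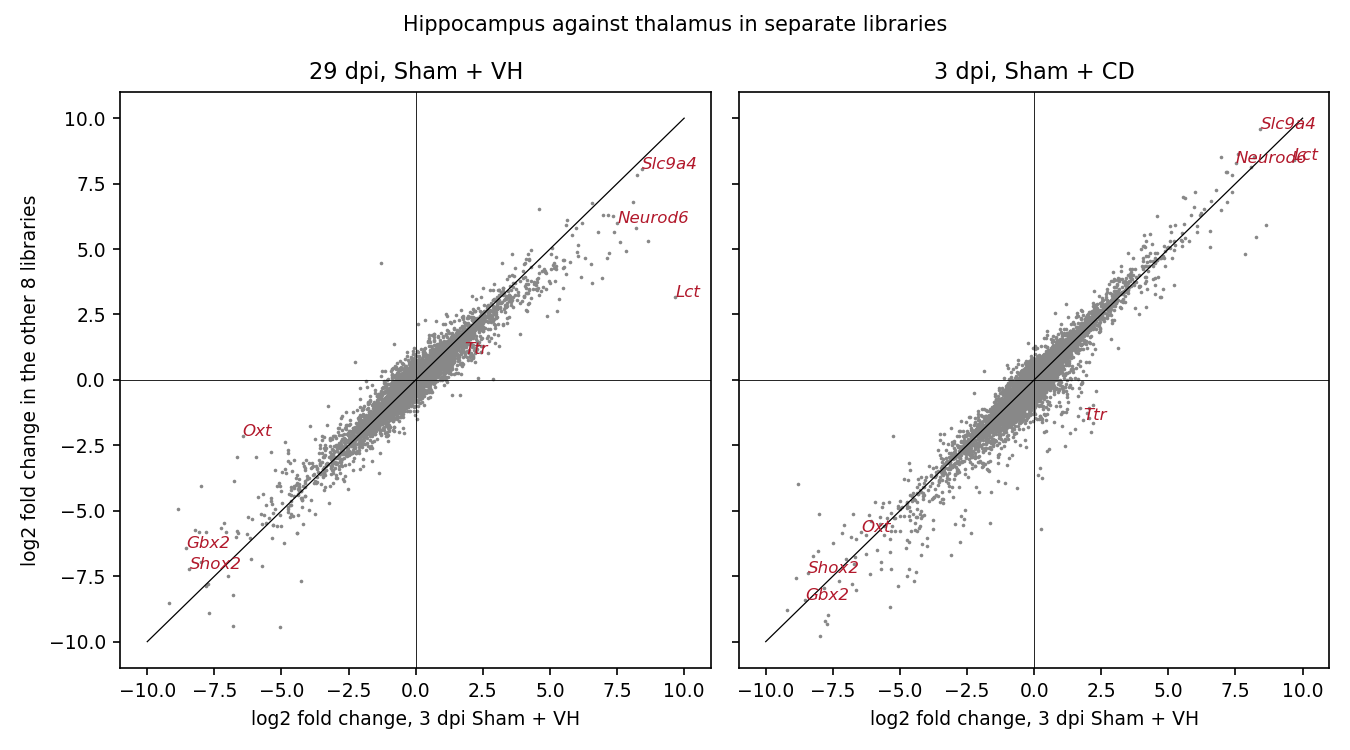
Log2 fold change, hippocampus against thalamus, of each gene in Sham + VH at 3 dpi (x axis) against its value in Sham + VH at 29 dpi (left) and in Sham + CD at 3 dpi (right), with the line of equal values. Lct (9.67 at 3 dpi, 3.15 at 29 dpi) lies off the line on the left, and Ttr (1.82 and -1.52) on the right.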

How the data were processed

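Per the labels and the study's methods, RNA was extracted from each dissected region, libraries were made with a stranded mRNA kit and sequenced as paired 75-base reads, and the authors aligned them to mm10 with MapSplice and deposited raw read counts per gene from HTSeq 0.9.1. They used DESeq2 1.16.1 for their own tests. The annotation, the strand setting and the rule for ambiguous reads are not given in the sources used here. Overlapping and near-identical genes are therefore uncertain, and the planned mitochondrial share could not be computed since no mitochondrial gene is listed.

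The counts of the 8 libraries were fitted with edgeR 4.0.16 (quasi-likelihood test, TMM, filterByExpr) with region as the only term, in R 4.3.3. FDR is the Benjamini-Hochberg adjusted p over all genes tested, and a call needed an FDR under 0.05 and an absolute log2 FC above 0.32, the thresholds of the study's methods. CPM are scaled by TMM. Positive log2 FC are higher in the hippocampus. DESeq2 1.42.0, other scaling, filters, covariates and left-out libraries were alternatives. The choroid plexus level used as a covariate was the mean log2 CPM of the genes of that list. The test code was checked on simulated data.

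Named genes were the 12 largest non-overlapping differences in each direction with at least 5 CPM, from each of 30 lists and 30 families the 4 largest called differences and the 2 most abundant members, all tested renin-angiotensin genes, fixed identity and reference genes, and 10 genes alike in both regions. The comparison, the lists and the motifs were chosen with earlier results of these data known. Per the study's methods, the 4 RNA samples of highest quality in each group were sequenced. The sources do not say whether samples of both regions came from the same mice. The edgeR p-values come from an unpaired test of the difference between regions, set against the spread between these samples. That test takes no account of mice shared between the regions. Some genes the rule names are not reported here. Promoters are from RefSeq (GRCm38.p6), and no interval covers more than counting error.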

Additional observations from a re-analysis of the deposited data

Results flagged for a closer look

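Among 257 sets of 4 values examined for the genes named (1 region of 1 gene each), 13 had 1 library far from the other 3, meaning that its gap to the nearest value as a share of the whole range was over Dixon's 95% limit for 4 values, and chance alone gives about 1 in 20, as many as were found. Thalamic replicate 2 accounted for 6 of them. It was highest for Tcf7l2 (325 CPM, nearest 250 CPM), Zic1 (289 CPM, nearest 189 CPM), Prox1 (57.4 CPM, nearest 41.1 CPM) and Enpep (3.77 CPM, nearest 2.99 CPM), and lowest for Sparc (1295 CPM, nearest 1534 CPM) and Rpl13 (4.98 CPM, nearest 5.89 CPM).

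Hippocampal replicate 3 was highest for Eomes (8.46 CPM, nearest 1.07 CPM), Slc1a2 (3052 CPM, nearest 2583 CPM), Dkk3 (433 CPM, nearest 387 CPM), Rtn3 (1274 CPM, nearest 1179 CPM) and Gad1 (328 CPM, nearest 310 CPM). Thalamic replicate 1 was highest for Slc6a3 (22.1 CPM, nearest 2.98 CPM), and thalamic replicate 3 lowest for Calb1 (164 CPM, nearest 200 CPM).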

How the results depend on the processing

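Against 6758 genes called and 952 over 4-fold, all alternatives except one gave counts within 1.5 times. With no filter on low counts, 1440 genes were called over 4-fold, since 23161 genes were then tested. DESeq2 called 6988, the choroid plexus level as a covariate 6243, and leaving out 1 library 6469 to 6932. Of the 6758 calls, 85.1% (FDR under 0.01, which tests the same fit more strictly) to 99.4% (RLE factors) were shared in direction with each alternative, 86.9% with the choroid plexus covariate, and 0 were opposed. Same-numbered libraries did not deviate together (correlations 0.0334, 0.0166, -0.25 and -0.0497). Regions of 1 mouse need not deviate together, so these values cannot tell whether equal numbers mark the same mouse. With the number as a replicate block, 6553 genes were called and 946 over 4-fold. For 134 of 149 named genes, none of the 17 alternatives changed the call, and no called gene changed sign. Calls on Kl, Trpv4 and Gad1 were lost in several. Without thalamic replicate 2, Kl had a log2 FC of 2.05 and Trpv4 of 1.92. Slc17a8 (-0.63) and Nkx2-1 (-1.98) lost their calls with the covariate. Agtr1a, with few counts, had an SE of 0.36.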
